A study of Caenorhabditis elegans with 12 samples.

Results

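Nematodes carrying a mutation in the dystrophin gene were compared with wild-type nematodes by gene expression microarray. The comparison used 8 of the 12 arrays of the study: 4 of strain LS292, genotype dys-1(cx18), and 4 of strain N2, the wild type of Caenorhabditis elegans. Arrays were chosen by the strain in their labels and paired by condition, with 1 array of each strain in each of 4 conditions. Dauer larvae of both strains, the stress-resistant resting stage, had been loaded on solid medium and kept at 23 °C. In static flight they spent a mission of 16.5 days in weightlessness with a radiation dose of 1.92 mGy, and in centrifuged flight they had artificial gravity and 2.27 mGy. The ground control ran for the same time in a static slot on Earth, starting 2 days later. The flown and ground control worms were collected 7 h after the end. The transport control was not carried to the launch or test site, and the duration, container and collection of its worms are not stated in the labels. The remaining 4 arrays held the strain MT4930, ced-1(n1995), whose gene encodes a receptor for the engulfment of dying cells. Intensities were read for 20018 genes, and values below are log2 intensities or differences between them.

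Dystrophin is a large cytoskeletal protein that, with dystrobrevin, syntrophins and sarcoglycans, forms a complex at the muscle membrane and joins the actin cytoskeleton to it. In the nematode, loss of dys-1 is known for exaggerated head bending, altered acetylcholine signalling and mislocalised calcium-gated potassium channels, and for slow muscle degeneration that becomes severe when the muscle regulator hlh-1 is also weakened. RNA here came from whole worms, so muscle is mixed with gut, epidermis, neurons and germline. In such bulk samples fewer cells of a type and less RNA per cell cannot be told apart.

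The dys-1 and N2 arrays lay far apart in 3 of the conditions and close together in the ground control. Along the first principal component, which held 41.2% of the variance, the dys-1 array lay above the N2 array by 55.2 in static flight, 35.6 in centrifuged flight, 49 in the transport control and 2.5 in the ground control. Differences of more than 1 log2 unit between the strains were seen for 1735 genes in static flight, 1510 in centrifuged flight, 2186 in the transport control and 756 in the ground control. Across genes, the strain differences of the 3 first-named conditions had Pearson correlations of 0.31 to 0.46 with each other and of 0.00 to 0.04 with those of the ground control, as a description over genes measured on shared arrays. With 1 array per strain and condition, and with repeats of technique but none of the sample per the labels, a p-value here reflects how much these single arrays vary.

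**Figure D1:**
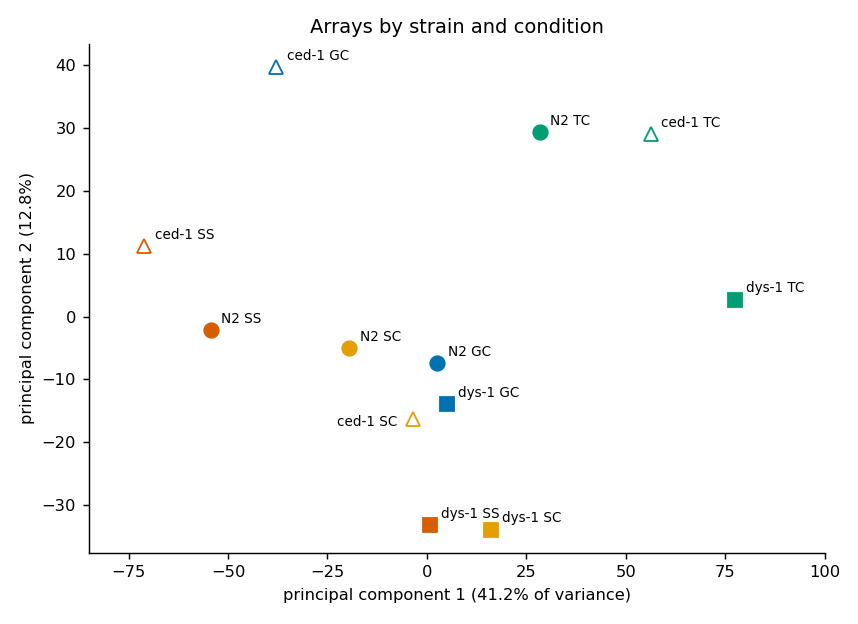
Scores of the 12 arrays on the first 2 principal components of log2 intensity, with circles for N2, squares for dys-1 and open triangles for ced-1, and colours for condition (SS static flight, SC centrifuged flight, GC ground control, TC transport control). The dys-1 array lies to the right of the N2 array by 35.6 to 55.2 in 3 conditions and by 2.5 in the ground control.

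By limma, fitted over all 12 arrays with condition as a block, 0 of 20018 genes passed an adjusted p of 0.05 between dys-1 and N2 (0%), and the lowest adjusted p was 0.0826. Before adjustment, 1519 genes higher in dys-1 (7.59%) and 1457 lower (7.28%) had p under 0.05, together 2976, where a share of 0.05 of all genes is 1001. This count was 1598 without the static flight arrays and 4143 without the N2 ground control array. The genes were read on the same arrays and are not independent, and whether 2976 is more than such arrays would give without a strain difference was not tested. A total of 2119 genes were higher in dys-1 in all 4 conditions (10.6%) and 2601 were lower in all 4 (13%). Counts of list members below stand beside these shares, and counts near them say nothing particular about a list. All 4 dys-1 arrays were above all 4 N2 arrays for 765 genes (3.82%) and below them for 557 (2.78%). The median difference over all genes was −0.03. Without the ground control arrays 118 genes passed as higher in dys-1 (0.589%) and 24 as lower (0.12%). Without the N2 ground control array alone the counts were 265 higher (1.32%) and 64 lower (0.32%), and 129 genes passed in both of these fits. In what follows no gene passed with all arrays, and a gene is said to pass only where one of these reduced fits is named. The ground control was singled out after the strains were seen to lie close there, so passing in these fits is not separate support. Without the static flight, centrifuged flight or transport control arrays 0 genes passed.

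The dystrophin transcript itself was read first. Array values are given in the order static flight, centrifuged flight, ground control and transport control. dys-1 was at 7.51, 7.25, 7.30 and 7.51 in N2 and at 7.30, 7.77, 7.29 and 8.68 in the mutant. The groups overlapped, with the mutant's transport control array above the rest and its ground control array at the N2 level. The difference was 0.37 ± 0.23 (SE, n = 4 arrays per strain, limma adjusted p = 0.469). The array carries 2 features for the gene. The one for isoform a was at 8.27, 8.93, 8.11 and 10.04 in the mutant and at 8.0, 8.14, 7.92 and 9.0 in N2, so that it was higher in the mutant in every condition. The one for isoform b was dimmer, at 6.34, 6.61, 6.48 and 7.31 in the mutant and 7.03, 6.37, 6.68 and 6.02 in N2. The labels do not say whether the allele removes the transcript, and the position of the probes relative to the mutation was not used here, so these values do not test the genotype. The ced-1 transcript, mutated in the other strain, was at 0.31 ± 0.19 between dys-1 and N2 (limma adjusted p = 0.457).

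Among 17 genes of the dystrophin complex and its partners the median difference was 0.23, with 4 members higher and 2 lower in all 4 conditions. Of all genes, 10.6% were higher and 13% lower in all 4. The list median was 0.11 in static flight, 0.17 in centrifuged flight, −0.01 in the ground control and 0.53 in the transport control. stn-2, 1 of the syntrophins that bind dystrophin and dystrobrevin, was the member with all mutant arrays above all N2 arrays. It was at 7.52, 6.96, 7.22 and 7.59 in N2 and at 7.88, 8.07, 7.80 and 8.48 in the mutant, a difference of 0.73 ± 0.21 (limma adjusted p = 0.196). The other syntrophin, stn-1, was at 8.44, 8.77, 9.56 and 9.32 in N2 and 9.50, 9.68, 9.36 and 10.06 in the mutant, so it lay higher in 3 conditions and lower in the ground control. Its difference was 0.63 ± 0.25 (limma adjusted p = 0.265). The dystrobrevin gene dyb-1 differed by 0.38 ± 0.20 and lay lower in the mutant in centrifuged flight.

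The sarcoglycans, membrane proteins of the complex, had no common direction. The beta-sarcoglycan sgcb-1 was at 8.99, 8.63, 8.70 and 8.37 in N2 and at 7.71, 8.48, 7.81 and 8.04 in the mutant. It was lower in the mutant in every condition, although the centrifuged flight value of the mutant lay within the N2 range, and the difference was −0.66 ± 0.24 (limma adjusted p = 0.240). The alpha-sarcoglycan sgca-1 was at 0.25 ± 0.18 and sgn-1 at −0.20 ± 0.28. The dystroglycan-related genes dgn-1, dgn-2 and dgn-3 were at −0.13 ± 0.21, 0.22 ± 0.33 and −0.10 ± 0.23, with signs that varied between conditions.

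Among the genes around the calcium-gated potassium channel, the channel gene slo-1 was at 0.36 ± 0.19. ctn-1, an alpha-catulin that helps place the channel near the dystrophin complex, was at 0.40 ± 0.19. Both were counted as higher in all 4 conditions, though their ground control differences were 0.00 and 0.03. islo-1, a linker between the complex and the channel, was at 0.23 ± 0.28, lower in static flight (−0.13) and the ground control (−0.28), and dyc-1, which binds to the complex through its partners, at 0.25 ± 0.20, lower in the ground control (−0.16). The acetylcholine and choline transporter gene snf-6 was at 0.15 ± 0.23, the muscle regulator hlh-1 at 0.15 ± 0.23 and the ubiquitin ligase gene chn-1 at −0.17 ± 0.20. The members other than stn-1, stn-2 and sgcb-1 had a limma adjusted p of 0.343 or more.

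**Figure D2:**
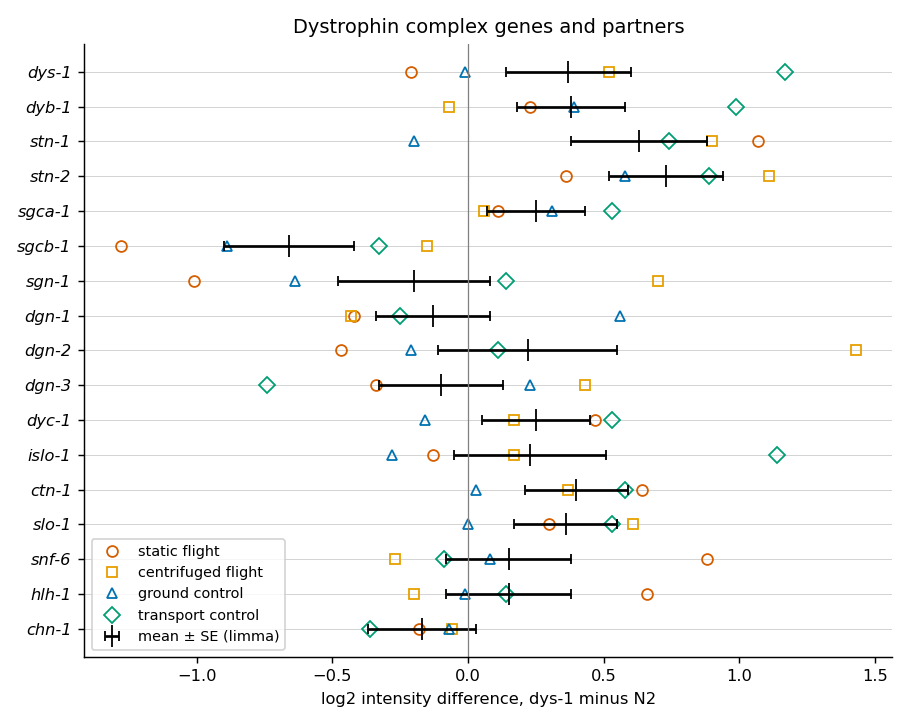
Difference in log2 intensity, dys-1 minus N2, of 17 genes of the dystrophin complex and partners, with 1 symbol per condition and the limma mean with its standard error in black. stn-2 lies above 0 and sgcb-1 below 0 in every condition, while most other members have conditions on both sides.

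Muscle lists had medians between −0.13 and 0.35, with single members in both directions. Of 16 thick filament genes (median 0.22), 5 were higher and 2 lower in all 4 conditions. The median was 0.08 without the ground control or without the transport control and 0.39 without static flight, and it was −0.15 in centrifuged flight. myo-2, a myosin of the pharynx, was at 12.11, 11.73, 12.02 and 12.50 in N2 and at 12.89, 12.98, 12.56 and 13.44 in the mutant. The groups did not overlap, and the difference was 0.88 ± 0.23 (limma adjusted p = 0.189). The other pharyngeal myosin, myo-1, was at 0.60 ± 0.19 and overlapped. myo-5, another muscle myosin, was at 9.34, 9.02, 9.43 and 9.39 in N2 and at 10.18, 10.10, 9.61 and 11.06 in the mutant, a difference of 0.94 ± 0.25 (limma adjusted p = 0.186) with no overlap. The myosin chaperone gene unc-45 was at 7.43, 7.43, 7.39 and 7.46 in N2 and at 7.99, 8.32, 8.24 and 8.02 in the mutant, a difference of 0.71 ± 0.23 (limma adjusted p = 0.209). It also showed no overlap, and its N2 arrays were close together. The main body wall myosin unc-54 was at 0.08, the second body wall myosin myo-3 at 0.19 and paramyosin, unc-15, at 0.13, each with conditions of both signs. The light chain gene mlc-1 lay lower, at −0.54 ± 0.24, and overlapped with N2.

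Among 18 markers of pharynx, gut and male the median was −0.02, with 3 higher and 3 lower in all 4 conditions, from −0.61 to 0.89 for the pharynx regulator gene pha-4. The summed intensity of 4 body wall muscle markers was 12072 to 20812 on the N2 arrays and 12471 to 19050 on the mutant arrays, with 3 of 4 members on the higher side and none below an unadjusted p of 0.05 by limma. Whether the share of pharynx in the RNA had a part in these values was not tested.

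The attachment genes, which anchor sarcomeres to the matrix, had a median of −0.13 over 28 members, with 4 higher and 6 lower in all 4 conditions. unc-23, a co-chaperone that keeps body wall muscle attached, was at 9.03, 9.39, 9.46 and 9.49 in N2 and at 10.19, 10.26, 10.00 and 10.91 in the mutant. All mutant arrays were above all N2 arrays, and the difference was 1.00 ± 0.22, or 2.00-fold (limma adjusted p = 0.124). The laminin gene lam-2 was at 0.40 ± 0.18 and the kinase gene pkn-1 at 0.59 ± 0.30. The collagen IV gene emb-9, of the basement membrane, was at −0.40 ± 0.20 and mup-4, an epidermal matrix receptor at muscle attachments, at −0.47 ± 0.21. The 19 thin filament and troponin genes had a median of 0.04, with 1 member higher (unc-94, a tropomodulin, at 0.59 ± 0.25) and 1 lower (unc-78, an actin-interacting protein, at −0.22 ± 0.17) in all 4 conditions.

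Excitation and calcium genes had the largest median of the 5 muscle lists, 0.35 over 29 members, with 9 higher and 0 lower in all 4 conditions. By condition the list median was 0.38 in static flight, 0.29 in centrifuged flight, −0.0 in the ground control and 0.76 in the transport control. itr-1, the receptor that releases calcium from internal stores, was at 8.58, 8.16, 8.26 and 7.89 in N2 and at 9.07, 8.97, 9.06 and 8.69 in the mutant. The groups did not overlap, with a difference of 0.72 ± 0.19 (limma adjusted p = 0.185). The potassium channel gene slo-2 was at 0.63 ± 0.20, the junctophilin gene jph-1, which holds membrane and calcium stores together, at 0.63 ± 0.20, the calcium channel subunit gene ccb-1 at 0.52 ± 0.19 and the GABA receptor gene unc-49 at 0.46 ± 0.22. The muscle calcium channel gene egl-19 and the exchanger gene ncx-2, chosen after their values were seen, passed without the N2 ground control array, at 1.22 ± 0.26 and 1.17 ± 0.25 (limma adjusted p = 0.0442 and 0.0451). In the ground control their differences were −0.00 and −0.02, against 1.03 to 1.33 in the other conditions.

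In fuel metabolism 2 genes had differences above 2 log2 units, and the medians of the pathways they belong to were near 0. acs-2, an acyl-CoA synthetase that feeds fatty acids to beta-oxidation, was at 8.74, 8.99, 9.70 and 10.90 in N2 and at 13.40, 13.80, 11.99 and 12.38 in the mutant. All mutant arrays lay above all N2 arrays. The difference was 3.31 ± 0.66, or 9.9-fold (limma adjusted p = 0.116), with 4.66 and 4.8 in the flown conditions and 2.29 and 1.48 in the ground and transport controls. icl-1, which encodes the glyoxylate cycle enzymes that let worms make sugar from fat, was at 11.82, 11.54, 11.88 and 12.34 in N2 and at 13.87, 14.42, 13.48 and 14.17 in the mutant. These groups too were separate, by 2.09 ± 0.33 or 4.25-fold, and icl-1 was among the genes with the lowest adjusted p of the comparison (limma, 0.0826). It passed without the ground control arrays (2.25 ± 0.39, limma adjusted p = 0.0423).

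The pyruvate carboxylase and phosphoenolpyruvate carboxykinase genes, of gluconeogenesis, lay on the same side. pyc-1, pyruvate carboxylase, was at 10.44, 10.69, 11.12 and 11 in N2 and at 11.51, 11.82, 11.74 and 12.42 in the mutant. The groups did not overlap, and the difference was 1.06 ± 0.25 (limma adjusted p = 0.156). It passed without the ground control arrays, at 1.2 ± 0.23 (limma adjusted p = 0.0486). The phosphoenolpyruvate carboxykinase genes pck-1 and pck-2 were at 0.77 ± 0.22 and 0.65 ± 0.19. Of the 23 glycolysis and gluconeogenesis genes (median 0.15), 9 were higher and 2 lower in all 4 conditions. Lactate dehydrogenase, ldh-1, was at 0.58 ± 0.22, and gpd-1, a glyceraldehyde-3-phosphate dehydrogenase, at −0.82 ± 0.29. Near-identical glyceraldehyde-3-phosphate dehydrogenase genes can share probe signal, so the single value is uncertain. The gpd-1 difference was −2.25 in the transport control and −0.32 to −0.35 in the other conditions.

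The 28 citric acid and glyoxylate cycle genes had a median of 0.03, with 6 higher and 1 lower in all 4 conditions. Citrate synthase, cts-1, was at 12.42, 13, 13.07 and 12.77 in N2 and at 13.46, 13.81, 13.59 and 13.59 in the mutant, without overlap, and differed by 0.79 ± 0.22 (limma adjusted p = 0.196). The succinate dehydrogenase subunit gene sdha-1 was at 0.61 ± 0.18 and the isocitrate dehydrogenase subunit gene idhg-1 at 0.41 ± 0.18. The succinyl-CoA synthetase subunit gene sucl-2 was the member lower in all 4 conditions, at −0.72 ± 0.23. The 52 respiratory chain and ATP synthase genes centred on −0.01. In all 4 conditions 6 were higher and 10 lower, beside 10.6% and 13% of all genes. In this list asb-1, an ATP synthase subunit used in the germline, was at −0.65 ± 0.21 with no overlap. Its difference was −1.4 in the transport control and −0.21 to −0.56 in the other conditions.

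Storage sugars split in the same way. The trehalose synthase genes tps-1 and tps-2 were separate between the strains. tps-1 was at 9.12, 9.04, 8.95 and 8.73 in N2 and at 9.85, 10.18, 9.54 and 9.80 in the mutant, a difference of 0.88 ± 0.24 (limma adjusted p = 0.196). tps-2 differed by 0.82 ± 0.24 and the trehalose phosphatase gene gob-1 by 0.35 ± 0.18. On the glycogen side, gyg-2, which primes glycogen, was at 11.63, 10.71, 10.79 and 11.62 in N2 and at 10.84, 10.01, 10.37 and 8.90 in the mutant, a difference of −1.16 ± 0.33 (limma adjusted p = 0.196), lowest in the transport control. The phosphorylase gene pygl-1, which breaks glycogen down, was at −0.53 ± 0.28. Over the 17 genes of the list 5 were higher and 2 lower in all 4 conditions, with a median of 0.01.

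Lipid lists had medians between −0.19 and 0.11, with members on both sides. The 48 lipid breakdown genes had a median of −0.08, with 7 higher and 3 lower in all 4 conditions, beside 10.6% and 13% of all genes. The lysosomal lipase gene lipl-4 was at 0.62 ± 0.21 and the hormone-sensitive lipase gene hosl-1 at 0.42 ± 0.20, while ech-6, an enoyl-CoA hydratase, was at −0.58 ± 0.18 with no overlap. The 26 fatty acid synthesis and desaturation genes had a median of 0.11, with 4 higher and 2 lower. mdt-15, a Mediator subunit that drives fat metabolism genes, was at 11.91 or less on the N2 arrays and at 12.13, 12.25, 12.53 and 12.75 on the mutant arrays. It was separate, at 0.73 ± 0.23 (limma adjusted p = 0.209). The desaturase gene fat-1 was at 0.54 ± 0.22. The 17 lipid-binding protein genes had a median of −0.19, with 1 higher and 1 lower in all 4 conditions. Among them far-2, chosen after its values were seen, passed as lower without the ground control arrays, at −1.23 ± 0.23 (limma adjusted p = 0.0466), and was at 0.10 in the ground control.

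Amino acid enzymes had a median of 0.00 over 49 members, with glutamine synthetases in both directions. gln-3 was at 0.84 ± 0.21, while gln-5 and gln-6 were at −1.11 ± 0.39 and −1.04 ± 0.30. The differences of gln-5 and gln-6 were largest in the transport control, at −2.62 and −2.37. In the other conditions gln-5 was at −0.26 to −1.03 and gln-6 at −0.46 to −0.73. The transaminase gene got-2.2 was at 0.80 ± 0.26. Among 26 gut proteases (median −0.14) the aspartyl protease gene asp-9 was at 6.25, 6.65, 6.66 and 6.69 in N2 and at 8.93, 8.99, 6.88 and 8.02 in the mutant. Its groups were separate, though by 0.22 in the ground control against 1.33 to 2.68 elsewhere, and its overall difference was 1.64 ± 0.38 (limma adjusted p = 0.147).

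icl-1, acs-2 and the trehalose genes are also known for high expression in fasted and dauer worms, so stage markers were read beside them. Of 3 dauer cuticle markers, cut-1 was at 0.90 and col-2 at 0.89, with 2.89 and 1.75 in static flight and −0.27 and 0.14 in the ground control, and col-40 was at −0.12. Their summed intensity ran from 727 to 21871 on the N2 arrays and from 3103 to 19848 on the mutant arrays. The longer list of 47 dauer and larval cuticle genes had a median of −0.04, with 3 higher and 6 lower in all 4 conditions. No marker is at 0, since the array reports an intensity for every gene. The part of these markers in the values of icl-1, acs-2 and the trehalose genes was not tested.

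Stress genes divided by class. Heat shock and chaperone genes lay higher in the mutant by their medians, least in centrifuged flight and the ground control, respectively. Antioxidant and detoxification genes were near 0, and part of the infection response lay lower. Of 15 small heat shock and inducible hsp-70 genes (median 0.85), 7 were higher and 1 lower in all 4 conditions. The list median was 0.7 in static flight, 0.1 in centrifuged flight, 0.31 in the ground control and 1.21 in the transport control. F44E5.4, an inducible hsp-70 gene with a near-identical neighbour that can share its signal, was at 9.34, 11.32, 11.64 and 9.68 in N2 and at 11.86, 12.44, 12.53 and 12.36 in the mutant. The strains did not overlap, and the difference was 1.80 ± 0.41 or 3.49-fold (limma adjusted p = 0.147). It passed without the ground control arrays, at 2.1 ± 0.39 (limma adjusted p = 0.0466).

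The members of the list ran from −0.69 to 2.08. hsp-16.48, a small heat shock protein of a near-identical family, was at 8.63, 9.86, 10.11 and 7.28 in N2 and at 10.28, 10.83, 11.03 and 10.16 in the mutant, a difference of 1.61 ± 0.36 (limma adjusted p = 0.147). hsp-16.1 was at 1.00 ± 0.33 and hsp-70 at 1.52 ± 0.48. hsp-12.6, a small heat shock gene known to be on in long-lived and starved worms, was at 8.61, 8.97, 7.95 and 7.20 in N2 and at 11.34, 12.14, 8.25 and 9.34 in the mutant. Its difference was 2.08 ± 0.58 (limma adjusted p = 0.196), and the mutant's ground control array lay within the N2 range.

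The 37 constitutive, endoplasmic reticulum and mitochondrial chaperone genes had a median of 0.37, with 13 higher and 1 lower in all 4 conditions. In the ground control their median was 0.05, against 0.32 to 0.53 in the other conditions. hsp-110, a helper of the hsp-70 machine, was at 11.10, 10.82, 11.27 and 10.99 in N2 and at 11.46, 11.81, 12.14 and 12.26 in the mutant, separate by 0.87 ± 0.22 (limma adjusted p = 0.177). The constitutive hsp-1 was at 0.54 ± 0.26, with 1.28 in static flight, where the N2 value of 13.60 stood below 14.74 to 14.78 on the other N2 arrays. The co-chaperone gene sti-1 was at 0.58 ± 0.21. Regulators of organelle stress lay on the same side, atfs-1 for mitochondria at 0.64 ± 0.19 and atf-6 for the endoplasmic reticulum at 0.59 ± 0.23.

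Of 28 autophagy genes (median 0.26), 13 were higher and 1 lower in all 4 conditions. The receptor gene sqst-1 was at 0.75 ± 0.28, the lysosome regulator gene hlh-30 at 0.63 ± 0.23 and epg-3, needed for autophagosome formation, at 0.73 ± 0.20 (limma adjusted p = 0.196 or more).

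Genes of the hypoxia response lay in both directions. nhr-57, a known target of the hypoxia factor, was at 8.07, 7.86, 8.03 and 8.44 in N2 and at 9.08, 9.15, 8.45 and 10.39 in the mutant. The difference was 1.17 ± 0.27 (limma adjusted p = 0.153), and it passed without the ground control arrays, at 1.42 ± 0.29 (limma adjusted p = 0.0499). The hypoxia factor gene hif-1 itself was at 0.80 ± 0.24, its partner aha-1 at 0.69 ± 0.27 and egl-9, the oxygen sensor that marks the factor for breakdown, at 0.81 ± 0.21. Ferritin, ftn-2, was at −0.52 ± 0.20. The median of the 15 genes was 0.11, with 4 higher and 1 lower in all 4 conditions, and it was −0.08 without the transport control.

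Antioxidant and metal response genes had a median of −0.02 over 37 members (4 higher and 4 lower in all 4 conditions). The metallothionein gene mtl-1 was at 13.41, 13.91, 12.80 and 12.82 in N2 and at 12.35, 13.13, 12.28 and 12.27 in the mutant, lower in every condition by a mean of −0.73 ± 0.22 (limma adjusted p = 0.197). Cytochromes P450 centred on 0.01 (75 genes), glutathione S-transferases on −0.10 (49) and UDP-glucuronosyltransferases on 0.09 (67). Single members stood apart, such as cyp-25A3 at 1.03 ± 0.23 with no overlap, cyp-33C8 at 1.03 ± 0.27, ugt-23 at 1.05 ± 0.22 and gst-7 at −0.48 ± 0.18.

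Infection response and antimicrobial peptide genes had a median of −0.18 over all members, with 7 higher and 27 lower in all 4 conditions. As shares of the list, the 7 lay below the 10.6% of all genes that were higher in all 4. The 27 lay above the 13% of all genes that were lower in all 4. irg-8, an infection response gene, was at 10.25, 9.96, 9.94 and 11.11 in N2 and at 9.02, 8.65, 9.53 and 9.46 in the mutant. The groups did not overlap, and the difference was −1.15 ± 0.23 (limma adjusted p = 0.116), which passed without the ground control arrays at −1.4 ± 0.22 (limma adjusted p = 0.0423). The antimicrobial peptide genes of the epidermis nlp-29, nlp-31 and nlp-34 were at −0.70 ± 0.22, −0.73 ± 0.21 and −1.0 ± 0.22, all without overlap. dct-17 was at −1.01 ± 0.21.

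The 10 dod- genes, named for lying downstream of the insulin pathway factor DAF-16, had a median of −0.64, with 1 higher and 3 lower in all 4 conditions and a range from −1.0 to 0.71. dod-17 was at 8.77, 7.72, 8.26 and 9.61 in N2 and at 7.49, 6.85, 7.69 and 8.35 in the mutant, a difference of −1.0 ± 0.21 (limma adjusted p = 0.116). dod-24 was at −0.96 ± 0.20 and dod-19 at −0.75 ± 0.22. Among 258 C-type lectins (median −0.15), 9 were higher and 45 lower in all 4 conditions, beside 10.6% and 13% of all genes. clec-135 was at 1.15 ± 0.21 and clec-87, an oocyte-abundant lectin, at −1.4 ± 0.44. For clec-87 the difference was −3.65 in the transport control, against −0.31 to −1.04 in the other conditions. Among 42 lysozyme and saposin genes (median −0.13), 0 were higher and 4 lower in all 4 conditions, and single genes ran from −0.84 to 2.1. The median was 0.16 for the ground control alone and 0.06 without centrifuged flight. The lysozyme gene lys-2 was at −0.64 ± 0.22 and lys-3 at 1.14 ± 0.49.

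**Figure D3:**
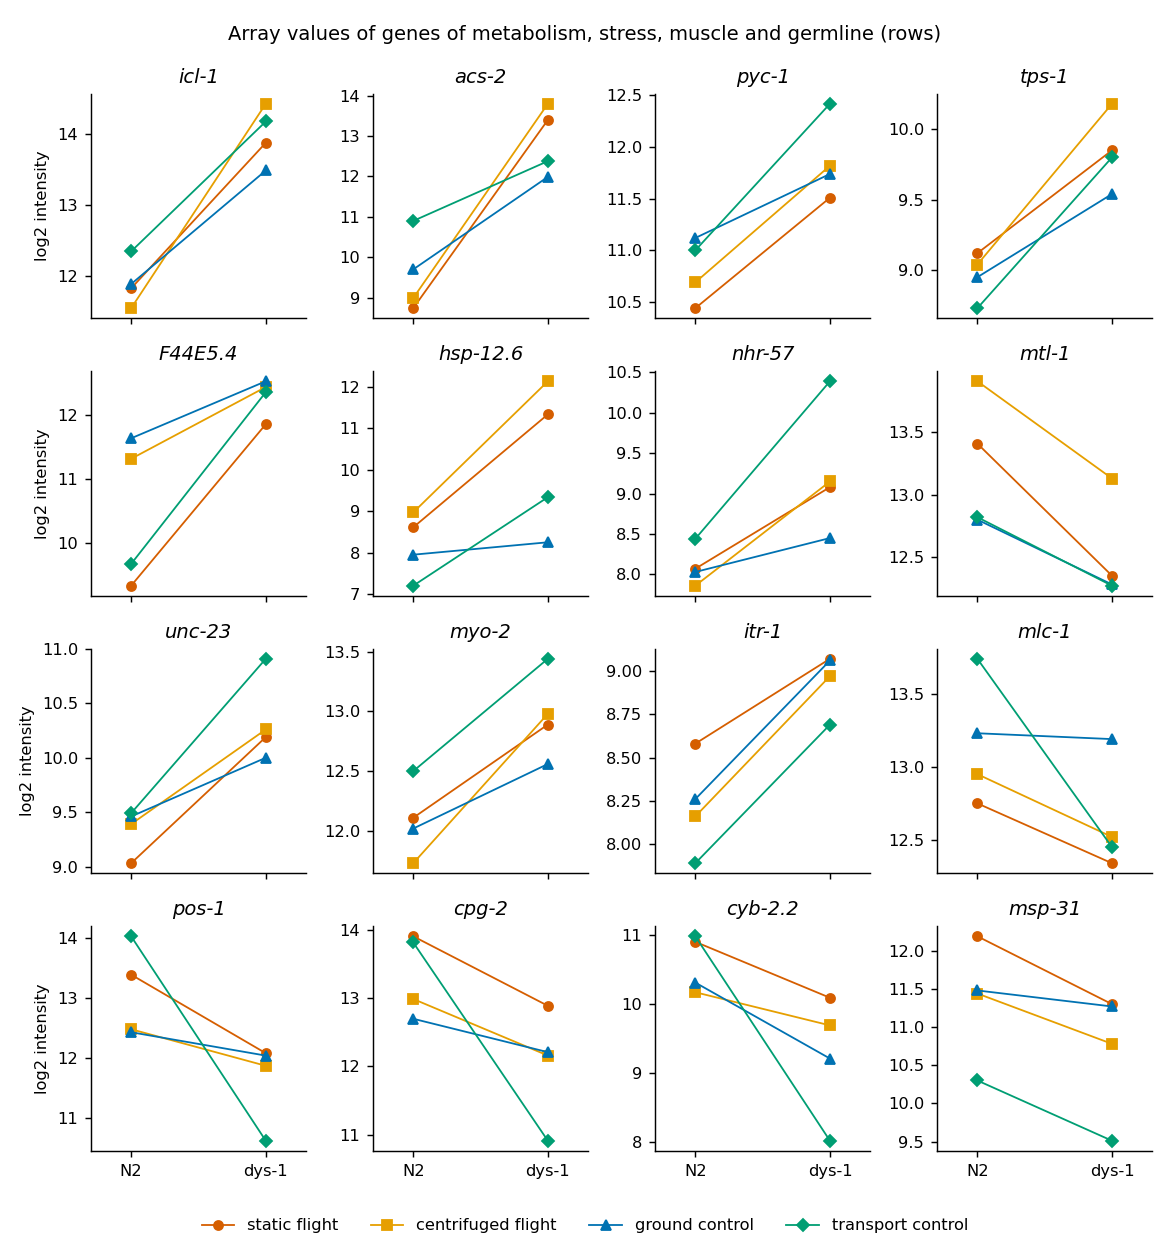
Log2 intensity of 16 genes on the 4 N2 and 4 dys-1 arrays, 1 line per condition and a scale per gene, with rows for metabolism, stress, muscle and germline. Lines of icl-1, acs-2, F44E5.4 and unc-23 slope upward in every condition, and those of pos-1, cpg-2 and msp-31 downward, steepest in the transport control for pos-1 and cpg-2.

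Germline genes were the broadest group on the lower side. Of 17 eggshell and egg activation genes (median −1.01), 0 were higher and 11 lower in all 4 conditions, and 14 were lower at an unadjusted p under 0.05. cpg-2, a chondroitin proteoglycan of the eggshell, was at 13.91, 12.99, 12.70 and 13.82 in N2 and at 12.89, 12.16, 12.21 and 10.91 in the mutant. It was lower in every condition, the groups overlapped at the ground control end of N2, and the difference was −1.31 ± 0.37 or 2.49-fold (limma adjusted p = 0.196). Its relative cpg-1 was at −1.28 ± 0.43, and egg-1 and egg-4, oocyte surface and egg activation proteins, at −1.27 ± 0.40 and −1.28 ± 0.30.

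Maternal RNA-binding proteins, which control translation in oocytes and embryos, had a median of −0.72 over 38 members, with 0 higher and 19 lower in all 4 conditions. pos-1, which sets cell fates in the early embryo, was at 13.39, 12.48, 12.43 and 14.03 in N2 and at 12.08, 11.87, 12.04 and 10.62 in the mutant. All mutant arrays were below all N2 arrays, and the difference was −1.43 ± 0.39 or 2.70-fold (limma adjusted p = 0.196). puf-5 was at −1.28 ± 0.42, oma-2, of oocyte maturation, at −1.2 ± 0.40, mex-5 at −1.13 ± 0.33 and the Nanos gene nos-2 at −1.13 ± 0.41. The germ granule genes glh-1 and pgl-1 were at 0.02 and −0.22. Both had conditions of either sign and were at −0.78 and −0.71 in the transport control. The oocyte maturation gene oma-1 was at −0.72 and the yolk receptor gene rme-2 at −0.82, with −2.17 and −1.87 in the transport control. The summed intensity of 4 germline and oocyte markers was 6395 to 11073 on the N2 arrays and 4184 to 7635 on the mutant arrays.

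Genes of dividing cells lay lower as well. Of 33 DNA replication genes (median −0.43), 0 were higher and 17 lower in all 4 conditions. rnr-2, a ribonucleotide reductase subunit, was at 9.98, 9.51, 9.17 and 10.38 in N2 and at 9.06, 8.17, 8.95 and 8.23 in the mutant, separate by −1.15 ± 0.32 (limma adjusted p = 0.196). The helicase gene mcm-7 was at −0.79 ± 0.27 and the sliding clamp gene pcn-1 at −0.70 ± 0.24. Of 42 mitosis genes (median −0.36), 1 was higher and 20 lower in all 4 conditions. The cyclin B gene cyb-2.2 was at 10.90, 10.17, 10.31 and 10.98 in N2 and at 10.09, 9.69, 9.21 and 8.02 in the mutant, separate by −1.34 ± 0.34 (limma adjusted p = 0.185). cyb-1 was at −0.96 ± 0.29 and the Aurora kinase gene air-1 at −0.87 ± 0.25. The 30 meiotic chromosome genes had a median of −0.31, or 0.01 in the ground control, with 0 higher and 5 lower, a share close to that of all genes, among them xnd-1 at −0.72 ± 0.25 and the axis gene htp-2 at −0.68 ± 0.26. The 47 histone genes, many near-identical, had a median of −0.54, with 0 higher and 23 lower in all 4 conditions, among them his-46 at −0.85 ± 0.25.

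Sperm genes lay lower by a smaller step and followed another pattern. The 33 major sperm protein genes, near-identical and sharing signal, had a median of −0.45, with 0 higher and 18 lower in all 4 conditions. msp-31 was at 12.19, 11.44, 11.48 and 10.30 in N2 and at 11.30, 10.78, 11.27 and 9.51 in the mutant, a difference of −0.64 ± 0.22 (limma adjusted p = 0.224). The strains overlapped because the conditions differed by more than the strains did. The 43 other sperm genes had a median of −0.29, with 0 higher and 12 lower, among them the sperm chromatin gene spch-1 at −0.61 ± 0.20 and ssp-33 at −0.74 ± 0.22. The yolk protein genes, expressed in the adult gut, had a median of −0.60 over 6 members, with 0 higher and 2 lower in all 4 conditions. The 2 were vit-5 at −0.78 ± 0.25 and vit-3 at −0.74 ± 0.26. In the ground control the median was 0.30, with vit-2 at 1.37.

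The oocyte difference was largest in the transport control. Medians of the eggshell list were −0.79 in static flight, −0.71 in centrifuged flight, −0.29 in the ground control and −2.33 in the transport control. The mean log2 intensity of its 17 genes was 11.63, 10.96, 10.69 and 11.51 in N2, 10.91, 10.34, 10.45 and 9.52 in dys-1 and 11.86, 11.05, 10.97 and 9.81 in ced-1. Thus ced-1 lay above the wild type in 3 conditions and near dys-1 in the transport control, where the wild type stayed within the range of its other arrays. The mean of the maternal RNA-binding genes in the transport control was 9.45 in dys-1 and 9.44 in ced-1, against 10.41 or more on every N2 array. Without the transport control the medians were −0.63 for the eggshell, −0.33 for the maternal, −0.26 for the replication, −0.24 for the mitosis, −0.14 for the meiotic, −0.30 for the histone and −0.24 for the yolk list. Major sperm proteins were at −0.44 without it.

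Adult markers were read beside the germline genes. The adult cuticle collagen col-19 was at −0.26 and vit-2 at −0.23, both with −0.77 or below in static flight and 0.73 or above in the ground control. The summed intensity of these 2 adult markers ran from 6814 to 27097 on the N2 arrays and from 4529 to 16323 on the mutant arrays. Their part in the germline values was not tested. Of 5 male markers 1 lay higher and 4 at or below 0, from −0.61 for lov-1 to 0.07 for mab-3, with summed intensities of 898 to 1034 in N2 and 570 to 1018 in the mutant.

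**Figure D4:**
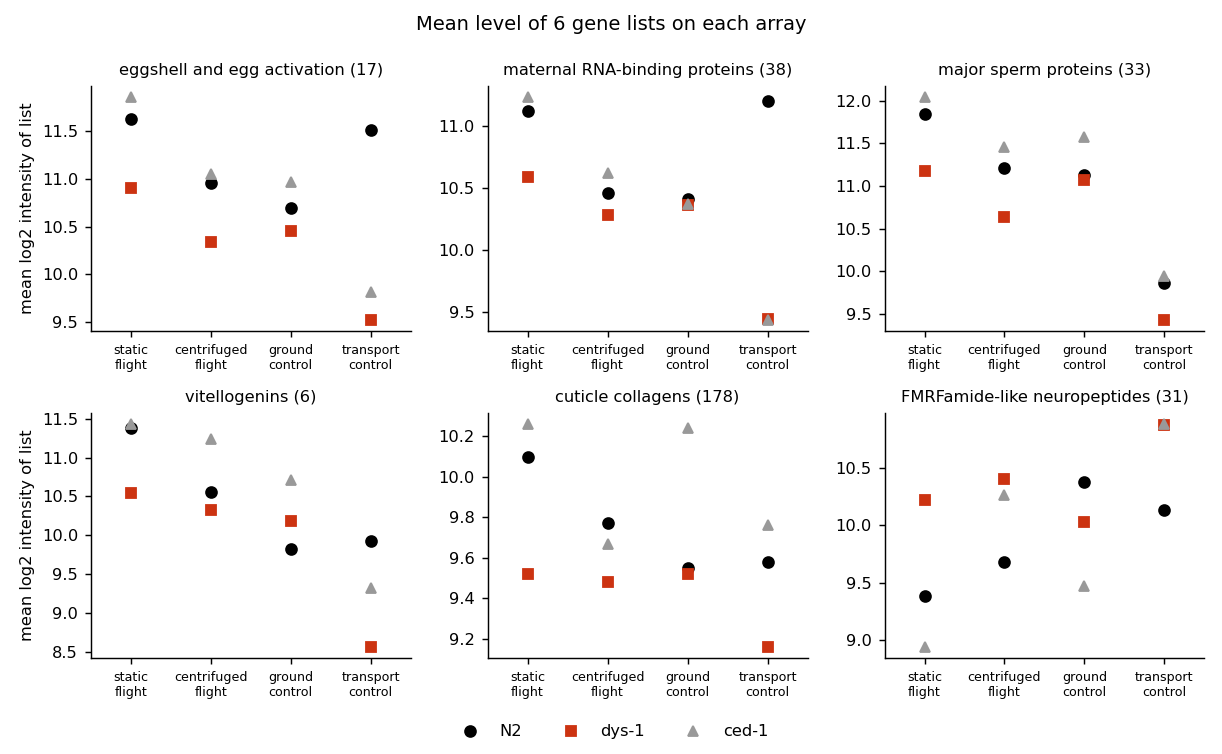
Mean log2 intensity over the genes of 6 lists on each of the 12 arrays, by condition and strain, with the number of genes in brackets. dys-1 lies below N2 in all 4 conditions for the eggshell, maternal, sperm and collagen lists, by little in the ground control, and for oocyte lists ced-1 joins dys-1 in the transport control.

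Cuticle collagens lay lower in the mutant, with a median of −0.40 over 178 genes and 3 higher and 73 lower in all 4 conditions. col-175 was at 11.30, 10.23, 9.97 and 8.55 in N2 and at 10.31, 8.98, 9.24 and 6.85 in the mutant. The difference was −1.17 ± 0.22 (limma adjusted p = 0.0957), and it passed without the ground control arrays at −1.31 ± 0.24 (limma adjusted p = 0.0466). col-138 and col-49 were at −1.08 ± 0.22 and −1.08 ± 0.25. The exception with the largest size was col-36, at 1.38 ± 0.49. Of the 26 moulting genes (median −0.07, highest 0.70), 5 were higher and 7 lower in all 4 conditions. The matrix gene noah-2 was at −0.74 ± 0.26 and mlt-8 at −0.65 ± 0.27, both without overlap.

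Neuronal lists lay higher in 3 conditions and lower in the ground control by their medians. The 31 FMRFamide-like neuropeptide genes had a median of 0.52, made of 0.86 in static flight, 0.76 in centrifuged flight, 0.71 in the transport control and −0.40 in the ground control. In all 4 conditions 3 members were higher, near the share of all genes (10.6%). Outside the ground control, set aside after its values were seen, 26 members were higher in all 3 conditions and 0 lower. Over all genes these shares were 21.3% and 22.1%. The members were read on the same arrays, so the 26 are not independent. flp-17 was at 9.52, 9.88, 10.93 and 10.97 in N2 and at 10.77, 10.80, 11.23 and 11.94 in the mutant, a difference of 0.86 ± 0.24 (limma adjusted p = 0.196). Other neuropeptide genes had a median of 0.32 over 76 members. In all 4 conditions 6 were higher and 11 lower, beside 10.6% and 13% of all genes. That median was 0.14 without the transport control and 0.64 without the ground control. The largest difference of the list was that of nlp-66, at 1.23 ± 0.24 (limma adjusted p = 0.108).

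Genes for transmitter synthesis and release had a median of 0.45 over 31 members. unc-10, which primes synaptic vesicles, was at 8.27, 8.74, 9.23 and 9.20 in N2 and at 9.77, 9.70, 9.36 and 10.48 in the mutant, separate by 0.97 ± 0.23 (limma adjusted p = 0.156), and passed without the ground control arrays (1.25 ± 0.22, limma adjusted p = 0.0423). egl-3, which cuts neuropeptide precursors, was at 1.05 ± 0.37 and the SNAP25 gene ric-4 at 0.77 ± 0.20, both without overlap. tbh-1, which makes octopamine, was at −1.03 ± 0.26, with −2.14 in the transport control and −0.31 to −0.89 in the other conditions. The summed intensity of 4 neuronal markers was 5884 to 15984 on the N2 arrays and 15643 to 27092 on the mutant arrays. By their mean differences all 4 were on the higher side, and 2 were below an unadjusted p of 0.05 by limma. In the ground control unc-17 was at −0.23 and flp-1 at −0.38, while unc-47 was at 0.76 and egl-3 at 0.13. As egl-3 is among these markers, the sum is not separate from its value above. The N2 ground control array held the highest mean level of FMRFamide-like genes among the N2 arrays, 10.38 against 9.38 to 10.13.

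**Figure D5:**
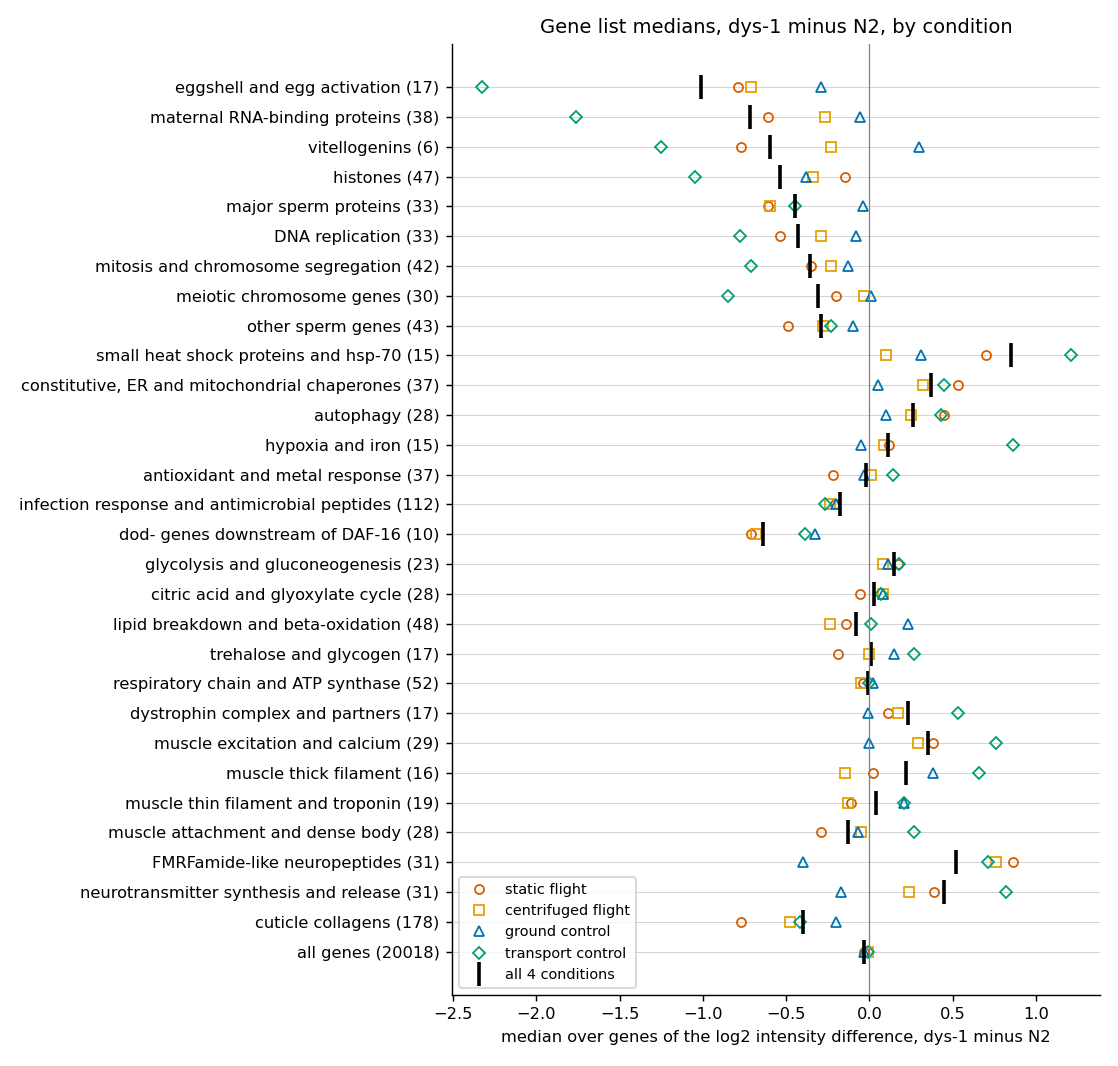
Median over the genes of each list of the log2 difference, dys-1 minus N2, in each condition (symbols) and over all 4 conditions (black bar), with the number of genes in brackets. Oocyte lists lie left of 0 and furthest in the transport control (−2.33 for eggshell genes). By their black bars heat shock, muscle excitation and neuropeptide lists lie right, but FMRFamide-like neuropeptide genes are at −0.40 in the ground control.

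The genes with the smallest p that belong to no list had few known roles. On the higher side dmsr-2, a receptor of the myosuppressin-receptor-related family, was at 7.52, 8.29, 8.16 and 8.42 in N2 and at 9.25, 9.65, 9.03 and 9.39 in the mutant. The groups were separate by 1.24 ± 0.20 (limma adjusted p = 0.0826). F46C5.1 was at 7.95, 7.62, 7.61 and 8.96 in N2 and at 10.08, 9.3, 10.92 and 12.11 in the mutant, a difference of 2.57 ± 0.41 or 5.93-fold that included the ground control. Y46H3C.7 was at 1.48 ± 0.25 and nssp-34 at 1.45 ± 0.25.

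On the lower side F16H11.2 was at 13.44, 14.10, 13.74 and 13.95 in N2 and between 11.98 and 12.93 in the mutant, separate by −1.34 ± 0.23 (limma adjusted p = 0.0826). T04C9.3 was at −1.35 ± 0.24 and Y53G8AM.2 at −1.04 ± 0.20, also separate. mltn-3, of a family related to a moulting gene, was at 9.03, 9.15, 9.49 and 8.74 in N2 and at 7.89, 7.49, 8.40 and 7.96 in the mutant, a difference of −1.17 ± 0.20 (limma adjusted p = 0.0826). On the ced-1 arrays mltn-3 was at 7.94, 8.08, 8.28 and 7.71, so that dys-1 and ced-1 differed by −0.07 ± 0.20.

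Comparison with the ced-1 mutant asked which of these differences are seen against a second strain as well. Both comparisons use the dys-1 arrays, so their values are set side by side and are not independent. Again 0 of 20018 genes passed (0%), with a lowest limma adjusted p of 0.0726. Before adjustment 1966 genes were higher (9.82%) and 1775 lower (8.87%) with p under 0.05. icl-1 was 2.09 above N2 and 1.62 ± 0.33 above ced-1, and acs-2 3.31 above N2 and 2.93 ± 0.66 above ced-1. In the transport control, however, ced-1 was at 14.01 for icl-1 and 12.78 for acs-2, level with the 14.17 and 12.38 of dys-1. pyc-1 was 1.08 above ced-1, tps-1 0.90, F44E5.4 1.65, hsp-110 0.93 and unc-23 0.89. The members of the chaperone list had a median of 0.54 against ced-1, with 25 of 37 higher at an unadjusted p under 0.05 by limma. Against N2 their median was 0.37, with 9 higher at that p. For this list ced-1 itself had a median of −0.22 against N2. The values against ced-1 thus also hold the distance of ced-1 from N2, and the 25 are not a count of differences seen against both strains.

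Among germline lists the median against ced-1 was −0.73 for eggshell, −0.34 for maternal RNA-binding and −0.68 for major sperm protein genes. Collagens had a median of −0.65 against ced-1. These values also hold the distance of ced-1 from N2. Its median was above N2 for collagens (0.22) and major sperm protein genes (0.25). It was below N2 for eggshell (−0.32) and maternal RNA-binding genes (−0.39). tbh-1, by contrast, was 1.03 below N2 and differed from ced-1 by −0.08 ± 0.26. The smallest p on the higher side included Y46H3C.7 (1.61 ± 0.25), F22E12.1 (1.59 ± 0.27), F41B5.6 (1.61 ± 0.26) and pyr-1, the enzyme that starts pyrimidine synthesis (1.35 ± 0.23). On the lower side were C29F9.9 (−1.4 ± 0.23) and the antimicrobial peptide gene nlp-31 (−1.13 ± 0.21), each with limma adjusted p = 0.0726.

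The last comparison asked whether the strain difference changed with flight, by a limma interaction of strain with the flown conditions against the ground and transport controls. Here 0 genes passed (0%), with a lowest adjusted p of 0.167, and at an unadjusted p under 0.05 the difference was larger in flight for 385 genes (1.92%) and smaller for 480 (2.4%). The lysozyme gene lys-3 was at 6.78, 6.83, 7.65 and 7.77 in N2 and at 9.31, 9.47, 7.25 and 7.57 in the mutant. It was higher in the mutant in both flown conditions and lower in both controls, and the interaction was 2.88 ± 0.41 (limma adjusted p = 0.167). ZK218.3 had an interaction of 3.86 ± 0.51 and C23H5.11 of 3.35 ± 0.49, with the same signs. B0416.3 was higher by 2.40 and 2.84 in flight and by 0.16 and 0.36 in the controls. The aspartyl protease gene asp-14 was lower by 1.25 and 1.37 in flight and higher by 0.37 and 0.30 in the controls, an interaction of −1.65 ± 0.37 (limma adjusted p = 0.995). For acs-2 the interaction was 2.85 ± 0.62 (limma adjusted p = 0.995).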

How the data were processed

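Total RNA of whole worms was labelled with Cy3 and hybridised to single-colour NimbleGen arrays, 1 per strain and condition. The authors deposited linear intensities of 23187 transcript features per array, normalized with RMA per the submitters' processing notes in a version that no source used here names. RMA equalises the distribution of probe signals over arrays, and a general shift in RNA content cannot be seen. Intensities ran from 39.8 to 59366.3 without detection flags, and dim genes were kept. No depth applies to arrays, and their number limits the precision.

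From these files log2 values with no offset were averaged over the features of each gene (20018 genes, 2273 with several features). Symbols came from the RefSeq gene table of WBcel235 for 19428 genes and from the array files for 590. limma 3.58.1 in R 4.3.3 fitted condition and strain over the 12 arrays (6 residual and 7.71 prior degrees of freedom), and a second fit held the interaction of strain with flight (4 residual). P-values were adjusted by Benjamini-Hochberg over all genes, with a threshold of 0.05. Arrays were paired by the condition in their labels. An exact test over 4 pairs was not used for single genes. The limma steps were tested on simulated data.

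Members and the 45 gene lists were chosen with earlier results of these data known. The genes named were up to 5 per list (those higher or lower in all 4 conditions with the largest difference), all dystrophin complex members, dys-1, ced-1 and up to 5 genes with the smallest p in each direction of each comparison, unless stated. Alternatives changed the arrays in the fit, the block, the normalization, an offset of 50, a filter at an intensity of 200, the variance model, array weights, the features used and the arrays or conditions left out. Values that set the list counts in 3 conditions or without ground control arrays were added after seeing the data. No sequences are shown, since no genome was used here.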

Additional observations from a re-analysis of the deposited data

Results flagged for a closer look

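Among the named genes, 1 array stood apart from the other 3 of its strain, by Dixon's criterion, in 15 of 326 strain groups (4.6%). The 1 in 20 of this criterion is for repeats of 1 condition, whereas each group held 4 conditions. The genes also share arrays and were partly chosen by their values, so this share cannot be set against chance. In dys-1 the transport control array was the one apart for 6 genes. It was high for sgca-1 (8.43 against 7.92 to 8.0), ccb-1 (11.21 against 10.7 to 10.78) and hlh-30 (12.98 against 12.25 to 12.37). It was low for dgn-3 (6.03 against 6.56 to 6.64), asb-1 (11.36 against 12.16 to 12.31) and pos-1 (10.62 against 11.87 to 12.08). The mutant's ground control array was low for jph-1 (8.65 against 9.5 to 9.62), and its centrifuged flight array was high for mtl-1 (13.13 against 12.27 to 12.35).

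In N2 the static flight array was apart for 5 genes. It was low for idhg-1 (8.9 against 9.36 to 9.39), asp-9 (6.25 against 6.65 to 6.69) and hsp-1 (13.6 against 14.74 to 14.78), and high for ech-6 (13.07 against 12.52 to 12.54) and air-1 (11.87 against 10.83 to 11). The N2 ground control array was low for hosl-1 (7.13 against 7.42 to 7.43), and the N2 transport control array was high for ucr-2.3, a respiratory chain gene (12.02 against 11.73 to 11.76).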

How the results depend on the processing

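The count of 0 genes between dys-1 and N2 held for every setting except array weights (64 genes, 48 higher and 16 lower) and some arrays left out. With arrays or conditions left out in turn it ran from 0 to 329. It was 329 without the N2 ground control array, 142 without all ground control arrays, 4 without the dys-1 ground control array and 3 without the ced-1 transport control array. Without the condition block (no replicate block) it was 0, with 1678 genes at p under 0.05 and a lowest limma adjusted p of 0.404, against 2976 and 0.0826 with it. Between dys-1 and ced-1 a trended, robust variance gave 268 genes, 118 higher and 150 lower, and leaving out arrays gave 0 to 335, with 335 without the N2 ground control array and 219 without the ced-1 centrifuged flight array. The flight interaction gave 0 in all settings, with 865 genes at p under 0.05 on all arrays. The cause of these changes was not tested. With arrays left out, 6 dystrophin partners changed sign: sgn-1 ran from −0.502 to 0.067, dgn-2 from −0.188 to 0.574, dgn-3 from −0.291 to 0.108, islo-1 from −0.079 to 0.451, snf-6 from −0.091 to 0.317 and hlh-1 from −0.029 to 0.265. Of the named genes' 4377 values under alternatives, 4271 kept sign and side of the threshold, 89 passed with the same sign and 17 turned sign. Medians of the oocyte, division, sperm, collagen, heat shock, chaperone, autophagy, muscle excitation and neuropeptide lists kept their sign in 22 of 22 settings, while that of the hypoxia list did in 20. Scaling moved the all-gene median from −0.03 to between −0.06 and −0.01.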
